A study of Manihot esculenta with 44 samples.

Results

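Leaf RNA of cassava (Manihot esculenta), a shrub grown for its starchy roots and planted from stem cuttings, was compared between plants in Bac Kan sampled on 31 May 2019 and plants in Hanoi sampled on 24 May 2019. Each group has 4 libraries, which makes 8 of the 44 libraries of the series. All plants were of the variety KU50, set out as cuttings in the open field, given similar NPK fertiliser and no other treatment that the labels name. The design text sets flowering plants of a mountainous area against plants of a general field that did not flower, without giving the site names. Bac Kan, a province in the northern mountains, is taken here as the first, and the comparison asks which leaf transcripts differed between these sites at the first date sampled at each. The libraries were chosen by the site and date in the sample titles, because the characteristics gave another date for 7 of these 8 libraries, though the same site for all of them. The labels name 1 field at each site, the dates lay 7 days apart, and neither the hour of sampling, the age of the leaf nor the number of plants behind a library is given. Site, field, day, hour, leaf age and deposited table therefore cannot be told apart in what follows. The labels do not say that the 4 libraries of a group came from separate plants, so p-values measure the spread between these samples, which may be technical.

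A leaf adjusts its photosynthetic machinery, pigments and chaperones to the light, warmth and water of its day, and its clock and day-length genes to the hour and the season. Touch, wind, wounding and insects set off a fast response in leaves, in which calcium and kinase signals switch on zinc finger, WRKY and ERF transcription factors and the hormone jasmonate. Young leaves also differ from mature ones in cell division, in the loosening of cell walls and in the building of chloroplasts.

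Levels are FPKM summed over the transcripts of a gene and rescaled to a total of 1000000 in each library, and differences are log2(level + 1) in Bac Kan minus Hanoi, with their SE. This scale understates the difference of genes at low levels: adding 0.1 or 5 in place of 1 moved the values of CO, PUB29, RALFL27, XTH32, CYP94B1, HSP22.0, SNRK2.6, DFR, F5H, TPS9, GA2OX1 and MCM4 by more than 1.5 times without ending a call. A gene is called higher or lower in Bac Kan when limma's p, Benjamini-Hochberg adjusted over the 20432 genes with a mean of 1 or more, was under 0.05. Genes carry the name of their best Arabidopsis hit, and what is said of a gene's role comes mostly from Arabidopsis. Close copies of a gene share reads, so values of neighbouring copies are uncertain. In leaf RNA, fewer cells of a type and less RNA per cell cannot be told apart. Libraries are numbered by the order of their columns, which names them and pairs none.

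Between the groups, 2119 genes were higher in Bac Kan and 1695 lower, together 18.7% of the genes tested (10.4% higher and 8.3% lower). The difference was 1 or more in 1453 of the genes called higher and -1 or less in 1304 of those called lower. The median over all genes tested was 0.07. In 3468 of the 3814 called genes every library of one group lay above every library of the other, and 4789 genes (23.4% of those tested) were apart in that way, called or not. Leaving out Bac Kan library 3 reduced the calls to 1245 higher and 1194 lower, and leaving out Bac Kan library 2 reduced the higher ones to 1370. In a fit over all 44 libraries, 6570 genes were called (31.9%), 3754 higher and 2816 lower, and 3700 of the 3814 were among them in the same direction. Of the 3814, 2145 were called without each single library in turn, and genes described below are of these unless it is said that they are not. Most described genes were also chosen from those whose groups did not overlap, so the lack of overlap describes them and supports nothing further.

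The libraries themselves differed in how evenly RNA was spread over genes. The 10 most abundant genes held 8.67% to 9.17% of the Bac Kan libraries and 13.2% to 15.3% of the Hanoi libraries (exact permutation test, p = 0.0286, the smallest that 4 against 4 allows). Libraries correlated with the others of their group at 0.913 to 0.919 on average in Bac Kan libraries and 0.846 to 0.858 in Hanoi libraries, across genes. Relative sequencing depth, estimated from the steps between low values, overlapped (0.858 to 1.298 times the median of the 8 in Bac Kan and 0.872 to 1.23 in Hanoi), as did the share of noncoding RNA (0.176% to 0.301% in Bac Kan libraries and 0.160% to 0.493% in Hanoi libraries). Genes at 1 or more numbered 19002 to 19284 in Bac Kan libraries and 18275 to 19140 in Hanoi libraries.

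Marker genes of tissues were followed alongside, since a leaf sample can hold more or less of each. Leaf mesophyll markers stood far above all others, as the tissue label has it, with summed levels of 16351 to 21091 in the Bac Kan libraries and 9798 to 15246 in the Hanoi libraries. Of 9 tested, 6 were higher and 2 lower, and 1 of the 10 gene IDs was at 0 in all 8 libraries. These markers include LHCB1, LHCB2 and CA1, which appear again below among the photosynthesis genes. Their sum is therefore no separate gauge of the amount of mesophyll. Flower markers summed to 24.1 to 50.8 in Bac Kan libraries and 27.5 to 57.4 in Hanoi libraries, and 8 of their 19 gene IDs were at 0 throughout. Markers of dividing tissue summed to 12.9 to 19.7 in Bac Kan libraries and 33.8 to 50.5 in Hanoi libraries, with 6 of 10 tested lower, none higher and 4 of 26 gene IDs at 0 throughout. Woody tissue markers were near 0 in both groups, at 0.627 to 2.10 in Bac Kan libraries and 6.95 to 13.0 in Hanoi libraries, with 6 of 19 gene IDs at 0. Only 1 of these markers was tested, and it was not called. Guard cell markers summed to 23.4 to 32.1 in Bac Kan libraries and 45.1 to 68.9 in Hanoi libraries (1 of 5 tested lower), and phloem markers to 42.5 to 72.3 in Bac Kan libraries and 80.2 to 110.4 in Hanoi libraries (1 of 10 tested lower). Of 3 epidermis gene IDs, CER6 ranged over 492 to 871 in the Bac Kan libraries and 136 to 283 in the Hanoi libraries, and both PDF2 copies were at 0. What part such shifts in tissue have in the differences below was not tested.

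**Figure D1:**
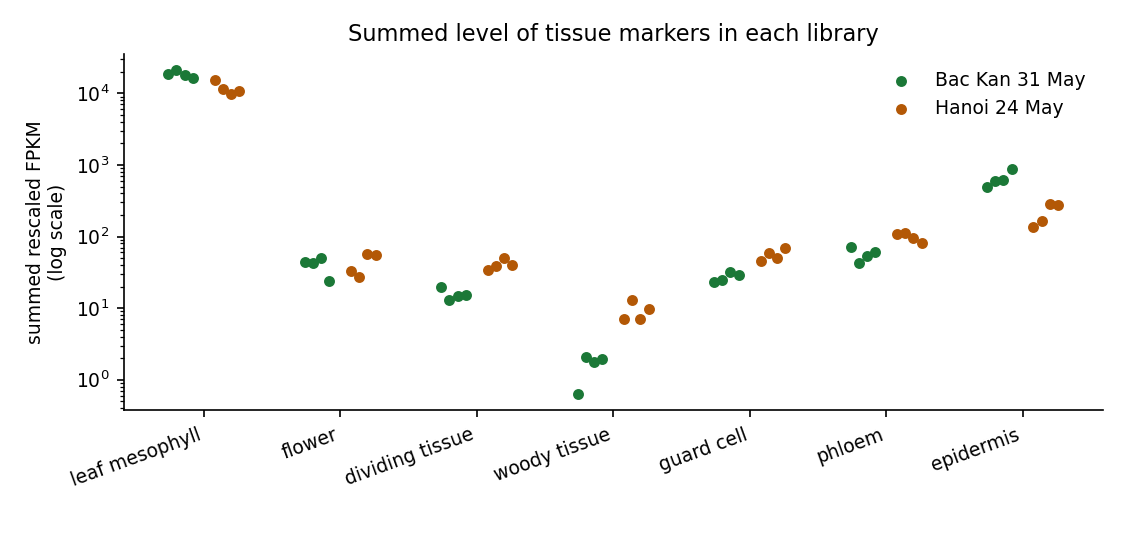
Summed level of the marker genes of 7 tissues in each library (rescaled FPKM, log scale), with Bac Kan 31 May in green left of Hanoi 24 May in orange. Mesophyll and epidermis markers lie higher in Bac Kan, markers of dividing and woody tissue, guard cells and phloem lie higher in Hanoi with no overlap, and flower markers overlap. The mesophyll markers include antenna genes, and the epidermis sum is that of CER6 alone.

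The machinery that harvests light was higher in Bac Kan. Of 20 tested members of the light-harvesting antenna, the chlorophyll-binding proteins that pass absorbed light to the photosystems, 15 were higher and 1 lower, with a median difference of 0.89. LHCB2 (MANES_01G175600), a mobile antenna protein of photosystem II, was at 1129.9, 1440.2, 961 and 789.5 in the Bac Kan libraries, against 456, 337, 252 and 229.7 in the Hanoi libraries. All of the Bac Kan values lay above all of the Hanoi values, a difference of 1.78 ± 0.24 (adjusted p = 0.00093). LHCA3 (MANES_13G058600), the counterpart on photosystem I, was among the most abundant of these genes, at 4615, 6308, 4626 and 4513 in Bac Kan and 2564, 1768, 1566 and 1665 in Hanoi. Bac Kan library 2 was the highest of its group, and no value overlapped (1.42 ± 0.18, adjusted p = 0.000629). LHCB1.3 (MANES_17G066700) was the exception among the antenna genes, at 24.7, 31.9, 23.4 and 24.4 in Bac Kan and 172, 91.6, 86.2 and 70.3 in Hanoi. It was lower by every library and the difference was -1.89 ± 0.27 (adjusted p = 0.0011), whereas the next 2 gene IDs of the same number series, MANES_17G066800 and MANES_17G066900, whose best hit is LHCB1.4, were called higher. Of 30 photosystem subunits, 11 were higher and none lower (median 0.43), a count that fell to 6 without Bac Kan library 2 or 3 or Hanoi library 2, 3 or 4. PSAK (MANES_14G134800), a small subunit of photosystem I that helps dock its antenna, was at 458, 780.4, 526 and 463 in Bac Kan, against 226, 119, 295 and 181 in Hanoi. The groups did not overlap, and the difference was 1.48 ± 0.27 (adjusted p = 0.00447).

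Called chlorophyll synthesis genes were mostly higher, like the antenna, with 10 of 26 members higher, 1 lower and a median of 0.53 (6 higher without Bac Kan library 2). GUN4 (MANES_11G120400) activates the magnesium chelatase that commits porphyrins to chlorophyll. It stood at 757, 749, 1006 and 1218 in Bac Kan and 381, 292, 209.9 and 169 in Hanoi, with every Bac Kan library well above every Hanoi one (1.86 ± 0.26, adjusted p = 0.000997). CHLM (MANES_06G126400), the methyltransferase that acts just after the chelatase, was at 187, 293, 206 and 264 in Bac Kan and 109.9, 51.3, 56.7 and 83.4 in Hanoi, again with no overlap (1.69 ± 0.25). The lower member was HEMA1 (MANES_10G092000), glutamyl-tRNA reductase, the entry step of the whole porphyrin pathway. Its levels were 20.5, 25.2, 17.2 and 10.9 in Bac Kan, against 61.8, 65.4, 78.6 and 86.041 in Hanoi, with every Hanoi library far above every Bac Kan one (-1.97 ± 0.26, adjusted p = 0.00075). A gene of chlorophyll breakdown was higher as well. PAO (MANES_04G012500), pheophorbide a oxygenase, opens the chlorophyll ring and was at 123.47, 138, 128 and 101.1 in Bac Kan and 25.3, 37.6, 37.0 and 53.1 in Hanoi (1.69 ± 0.22, adjusted p = 0.000799). It belongs to the list of senescence and darkness genes, of which 10 of 28 tested were higher and 2 lower (median 0.50). Without Bac Kan library 4, 6 of them were higher.

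Carbon fixation was mixed. In the Calvin cycle 6 of 32 tested genes were higher and 4 lower, with a median of 0.14, and without Hanoi library 1 the higher ones numbered 11. GAPB (MANES_05G125200), a subunit of the chloroplast glyceraldehyde-3-phosphate dehydrogenase, was at 2081, 1659, 2057 and 1814 in Bac Kan and 1215, 799, 693 and 753 in Hanoi. Hanoi library 1 came nearest to the Bac Kan values without reaching them (1.17 ± 0.18, adjusted p = 0.00172). RPI2 (MANES_06G061700), a ribose-5-phosphate isomerase, was lower, at 44.049, 21.5, 18.3 and 14.6 in Bac Kan against 102, 87.9, 112 and 79.4 in Hanoi, and Bac Kan library 1 was the highest of its group (-2.02 ± 0.30). Copies of CA1, the carbonic anhydrase that interconverts carbon dioxide and bicarbonate, differed in opposite directions. The copy MANES_15G167500 was at 6297, 6358, 5787 and 5972 in Bac Kan and 3806, 3007, 2730.3 and 2789.7 in Hanoi. The copy MANES_17G116800 was at 2295, 2125, 2639 and 2414 in Bac Kan and 4457, 4374, 3421 and 4837 in Hanoi. Neither copy had overlapping groups, with differences of 0.997 ± 0.13 (adjusted p = 0.0008) and -0.84 ± 0.14 (adjusted p = 0.00241). The more abundant copy was thus the first in Bac Kan, and in Hanoi the second in every library. Photorespiration, which recycles the product of oxygen fixation by Rubisco, had 4 of 14 genes higher and 2 lower.

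Transcription factors of light and day-length signalling were higher in Bac Kan, among those called. Of 30 tested B-box and CONSTANS-like factors, which act in light and photoperiod signalling, 12 were higher and none lower (median 0.63). The higher ones numbered 6 without Bac Kan library 3 and 7 without Bac Kan library 4. The B-box factor MANES_15G081200, whose best hit is BBX28, was at 84.5, 259.6, 96.3 and 128 in Bac Kan and 20.6, 34.3, 28.4 and 21.4 in Hanoi. Bac Kan library 2 had the highest value, and even the lowest lay far above the Hanoi libraries (2.28 ± 0.33, adjusted p = 0.0013). COL4 (MANES_03G006000), a relative of CONSTANS, was at 176, 273, 198 and 178 in Bac Kan and 71.7, 86.7, 86.7 and 80.1 in Hanoi, without overlap (1.31 ± 0.17, adjusted p = 0.000785). CONSTANS itself, CO (MANES_01G024100), which activates florigen under favourable day length, was at 5.59, 2.93, 2.31 and 2.51 in Bac Kan and listed at 0 in all 4 Hanoi libraries (adjusted p = 0.00891). CDF2 (MANES_05G103100) encodes a DOF factor that represses CO in Arabidopsis. It was higher too, at 30.2, 45.4, 43.7 and 46.4 in Bac Kan and 9.54, 7.48, 9.47 and 7.55 in Hanoi, with the Hanoi values close together and far below (2.15 ± 0.23, adjusted p = 0.000236). In the wider list of photoperiod and photoreceptor genes, 9 of 37 tested were higher and none lower (median 0.42). The fit over 44 libraries called 19 of 38 higher and 1 lower there.

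Of 23 circadian clock genes 3 were higher and 1 lower, a share near that over all genes tested, and the fit over 44 libraries called 8 higher and 2 lower. PRR5 (MANES_05G016200), an afternoon repressor of the clock, was at 43.8, 35.1, 31.4 and 29.4 in Bac Kan and 13.5, 4.40, 10.5 and 9.37 in Hanoi (1.85 ± 0.32, adjusted p = 0.00301). Its relative PRR7 (MANES_07G105100), which peaks earlier in the day in Arabidopsis, was at 12.3, 8.78, 12.7 and 17.8 in Bac Kan and 29.6, 49.0, 28.6 and 33.3 in Hanoi (-1.39 ± 0.27, adjusted p = 0.0059). Both had groups that did not overlap, PRR5 with every Bac Kan library higher and PRR7 with every Bac Kan library lower. ZTL (MANES_06G022700), the blue-light F-box protein that removes PRR5 and TOC1, was at 91.9, 101.04, 126 and 117 in Bac Kan and 43.2, 55.2, 45.6 and 30.3 in Hanoi, all higher (1.32 ± 0.21). The morning gene LHY (MANES_05G015600) was at 46.9, 32.3, 54.9 and 47.3 in Bac Kan and 29.7, 20.8, 9.82 and 20.2 in Hanoi. Its groups lay close but apart, and its call (1.20 ± 0.32, adjusted p = 0.0244) was lost without Bac Kan library 1, 3 or 4, with adjusted p = 0.0579, 0.0754 and 0.0613. A second LHY copy (MANES_01G239000) was at 9.00, 5.17, 7.09 and 7.46 in Bac Kan and 7.14, 5.61, 1.46 and 7.34 in Hanoi, which overlapped (adjusted p = 0.479). GI (MANES_18G095000) and FKF1 (MANES_15G134900), which act together in the afternoon to clear CDF proteins, were not called, with adjusted p = 0.64 and 0.343. GI was at 58.6, 48.1, 64.6 and 71.2 in Bac Kan and 36.0, 57.2, 79.8 and 46.3 in Hanoi. FKF1 was at 62.9, 47.4, 68.2 and 85.966 in Bac Kan and 25.9, 57.1, 76.5 and 41.5 in Hanoi. For both, the Hanoi libraries spread more widely than the Bac Kan ones and enclosed most of them. The evening gene TOC1 was not called in either copy, with differences of 0.75 ± 0.38 (MANES_06G089800, adjusted p = 0.197) and 0.11 ± 0.34 (MANES_14G081500, adjusted p = 0.85).

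Florigen was not detected at these dates. The florigen family of 11 gene IDs had no member at a mean of 1 or more. Both FT homologues (MANES_13G000800 and MANES_12G001600), which encode the mobile flowering signal made in leaves, were listed at 0 in all 8 libraries. BFT (MANES_14G027800), a relative that opposes flowering in Arabidopsis, was at 0.519, 0, 2.83 and 0 in the Bac Kan libraries and at 0 in each Hanoi library. Genes of the age pathway and floral integrators differed from gene to gene, with 4 of 33 tested higher and 7 lower (4 lower without Bac Kan library 3). FUL, a MADS-box factor of the floral transition, has 3 copies here. The copy MANES_02G059300 was at 19.4, 16.1, 16.6 and 30.2 in Bac Kan and 4.64, 4.52, 12.8 and 7.33 in Hanoi, apart by every library. Its call (1.43 ± 0.36, adjusted p = 0.0193) was lost without Bac Kan library 4 (adjusted p = 0.0617). The other copies overlapped, at differences of -0.05 ± 0.70 (MANES_06G081800, adjusted p = 0.974) and 0.53 ± 0.93 (MANES_14G088500, adjusted p = 0.729). Both SOC1 copies, a floral integrator of the same family, overlapped as well, at -0.52 ± 0.41 (MANES_01G263500, adjusted p = 0.418) and 0.46 ± 0.32 (MANES_05G041900, adjusted p = 0.35).

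The lowest differences of the age pathway were those of SPL5 and SPL3, small factors that build up as shoots mature and promote flowering in Arabidopsis. SPL5 (MANES_03G106900) was at 43.7, 30.3, 44.1 and 43.7 in the Bac Kan libraries, against 608, 995, 918 and 717 in the Hanoi libraries. Every Hanoi library lay many fold above every Bac Kan one (-4.28 ± 0.20, adjusted p = 2.51e-06). SPL3 (MANES_16G029900) was at 0, 1.24, 8.32 and 2.78 in Bac Kan and 25.4, 52.7, 62.6 and 49.9 in Hanoi, also with no overlap (-3.96 ± 0.60, adjusted p = 0.00157).

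Genes of the early response to touch, wounding and calcium differed in 1 direction only, among those called. Of 47 tested, 20 were lower in Bac Kan and none higher, with a median difference of -1.30. The count was 18 to 22 lower when single libraries were left out. This list of early-response genes, like the others, was drawn up with earlier results of these data known. Its counts describe the members and support nothing further. PUB29 (MANES_02G176900), a ubiquitin ligase of this response, was at 0.414, 0, 0.323 and 0 in Bac Kan and 31.1, 59.954, 39.8 and 69.1 in Hanoi. It was at 0 in Bac Kan libraries 2 and 4 and well above that in every Hanoi library (-5.38 ± 0.34, adjusted p = 2.43e-05). Kinases of the response were lower too. MAPKKK19 (MANES_12G103600), at the head of a kinase cascade, was at 0.99, 3.57, 0.257 and 1.89 in Bac Kan and 40.7, 74.0, 90.6 and 71.7 in Hanoi. MPK3 (MANES_04G026700), a kinase at the end of the cascade that answers wounding and pathogens, was at 15.3, 7.78, 6.92 and 9.79 in Bac Kan and 64.1, 97.2, 148 and 151 in Hanoi. Neither had overlapping groups, at differences of -4.82 ± 0.41 (adjusted p = 9.91e-05) and -3.38 ± 0.32 (adjusted p = 0.000139). ZAT10 (MANES_05G180900), a zinc finger repressor induced within minutes by many stresses in Arabidopsis, varied within Bac Kan, at 253, 122.97, 26.8 and 46.025, against 536, 634, 675 and 793 in Hanoi. Even Bac Kan library 1, the highest of its group, lay far below the lowest Hanoi value (-3.03 ± 0.56, adjusted p = 0.00448). RALFL27 (MANES_01G102300), which encodes a small secreted peptide of the RALF family, was listed at 0 in all 4 Bac Kan libraries and was at 61.1, 9.07, 92.7 and 20.3 in Hanoi (adjusted p = 0.000556).

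The same groups differed in genes that loosen and remodel cell walls. Among 40 tested expansins and xyloglucan endotransglucosylases (XTH), 17 were lower in Bac Kan and 1 higher, with a median of -1.17, and 13 to 18 were lower when single libraries were left out. XTH23 (MANES_S055900), which cuts and rejoins xyloglucan and is induced by touch in Arabidopsis, was at 10.7, 16.7, 3.44 and 18.9 in Bac Kan and 175, 238, 303 and 358.89 in Hanoi. EXPA15 (MANES_01G092600), an expansin of growing tissue, was at 3.99, 1.41, 0.691 and 0.845 in Bac Kan and 51.0, 39.2, 40.6 and 56.4 in Hanoi. Every Hanoi library lay many fold above every Bac Kan one in both genes, with differences of -4.48 ± 0.43 (adjusted p = 0.000142) and -4.25 ± 0.37 (adjusted p = 9.98e-05). The higher member was XTH32 (MANES_04G013900), at 8.25, 7.00, 15.6 and 10.8 in Bac Kan and 0, 4.34, 0.733 and 0.662 in Hanoi (2.47 ± 0.52, adjusted p = 0.00922). Hanoi library 1 had none of it, and Hanoi library 2 came closest to the Bac Kan values. Genes of dividing tissue were lower as well, with 10 of 28 tested lower and none higher (median -0.81). That count depended on single libraries, with 4, 5, 5 and 3 lower without Bac Kan libraries 1 to 4 and 6 without Hanoi library 2 or 3. MCM4 (MANES_S101400), a subunit of the helicase that opens DNA for replication, was singled out after its values were seen, at 0.161, 0.307, 1.25 and 0.918 in Bac Kan and 3.54, 4.36, 4.05 and 5.14 in Hanoi, low in both and without overlap (-1.71 ± 0.40, adjusted p = 0.0152). The markers of dividing tissue share genes with this list, MCM4 among them, so they are no separate gauge of it. Their sums (12.9 to 19.7 in Bac Kan libraries and 33.8 to 50.5 in Hanoi libraries) moved with the wall genes. The part of dividing tissue in the difference was not tested.

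**Figure D2:**
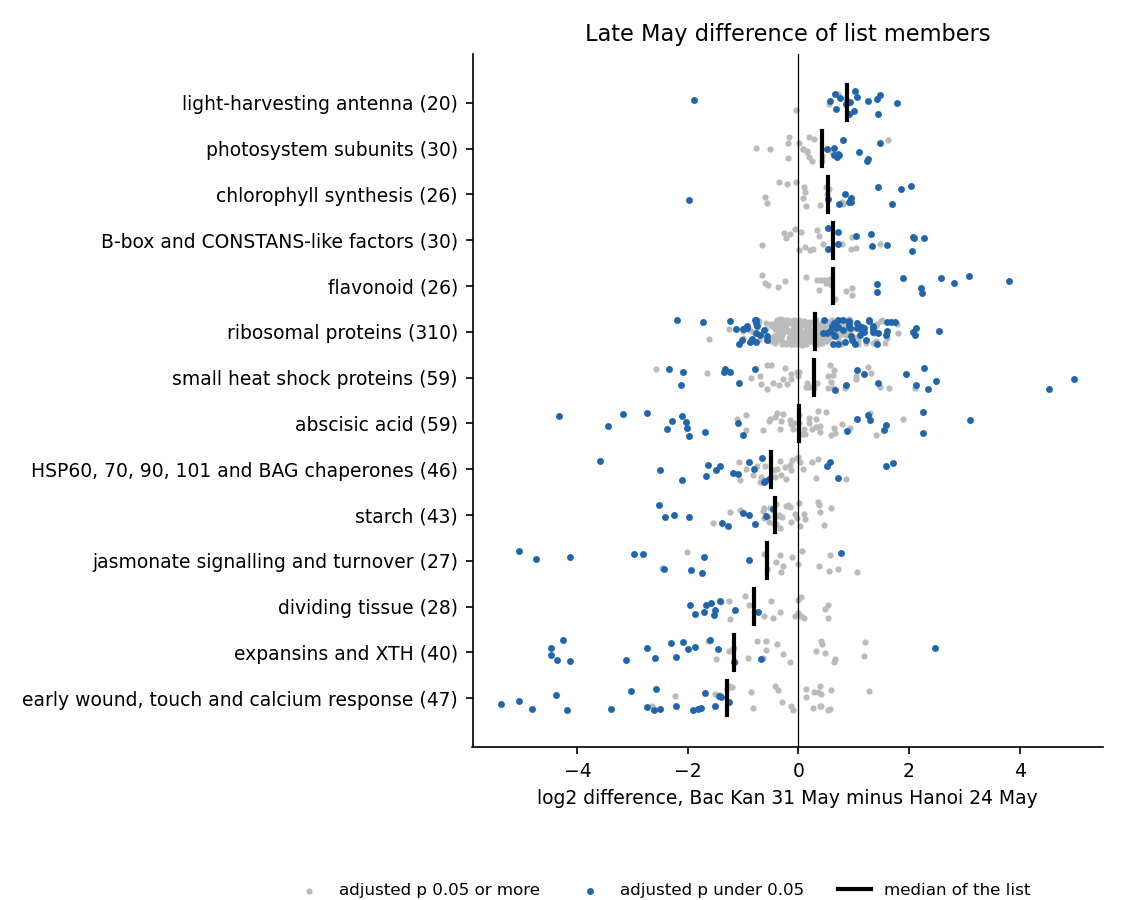
Difference of each tested member of 14 gene lists (log2, Bac Kan 31 May minus Hanoi 24 May; number tested in brackets), in blue where the adjusted p was under 0.05 and grey otherwise, with the list median as a black bar. Antenna genes gather right of 0 (median 0.89) and the early-response, expansin and XTH genes left of it (medians -1.30 and -1.17), while small heat shock proteins and abscisic acid genes spread to both sides.

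Jasmonate, the hormone of wounding and herbivory, differed in its synthesis, its signalling and its removal. Of 17 tested synthesis genes, 5 were lower in Bac Kan and 1 higher (median -0.44), and of 27 signalling and turnover genes 10 were lower and 1 higher (median -0.57). When single libraries were left out, 5 to 6 synthesis genes and 9 to 11 signalling genes were lower. AOS (MANES_05G166200), allene oxide synthase, makes the first committed intermediate of jasmonate. It was at 23.9, 16.2, 11.6 and 14.6 in Bac Kan and 74.0, 124, 121 and 127 in Hanoi. Hanoi library 1 was the lowest of its group and still lay far above the highest Bac Kan value (-2.69 ± 0.26, adjusted p = 0.00014). CYP94B1 (MANES_S053200), which inactivates the active jasmonate by hydroxylation, was at 1.58, 0.402, 0.738 and 0 in Bac Kan and 20.9, 28.3, 21.5 and 39.4 in Hanoi. The groups were widely apart (-4.12 ± 0.38, adjusted p = 0.000131).

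Among the stress-responsive transcription factors, called members of the AP2 and ERF, WRKY and NAC families were mostly lower. In the AP2 and ERF family 20 of 79 tested were lower and 7 higher (4 higher without Bac Kan library 1, 2 or 3), in the WRKY family 14 of 58 lower and 3 higher, and in the NAC family 11 of 50 lower and 6 higher. Over all tested members the medians were -0.29, -0.19 and -0.20. Above 0 lay 33 of 79, 28 of 58 and 23 of 50 members, so the families as a whole had no common direction. MYB factors had 9 of 89 higher and 8 lower, and bHLH factors 9 of 99 higher and 13 lower. Their called shares, 19.1% and 22.2%, were near the 18.7% over all genes tested. ERF9 (MANES_13G143500), an ethylene-response factor, was at 45.1, 35.6, 4.76 and 17.5 in Bac Kan and 341, 315, 410.0 and 408 in Hanoi. Bac Kan varied widely among its own libraries, all far below the Hanoi values (-4.16 ± 0.53, adjusted p = 0.000669). MYB44 (MANES_18G042000), a stress-induced regulator of abscisic acid and wound responses, was at 14.4, 12.3, 9.45 and 11.9 in Bac Kan and 119.9, 339, 250.2 and 288 in Hanoi (-4.18 ± 0.30, adjusted p = 4.83e-05). WRKY47 (MANES_05G008500) ran against most called members of its family, at 20.049, 21.5, 38.7 and 31.3 in Bac Kan and 0.963, 4.92, 3.27 and 2.36 in Hanoi, higher in every library (2.96 ± 0.39, adjusted p = 0.00075). Salicylate and immune defence genes had 5 of 50 lower and 1 higher, a called share (12%) under that over all genes tested.

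**Figure D3:**
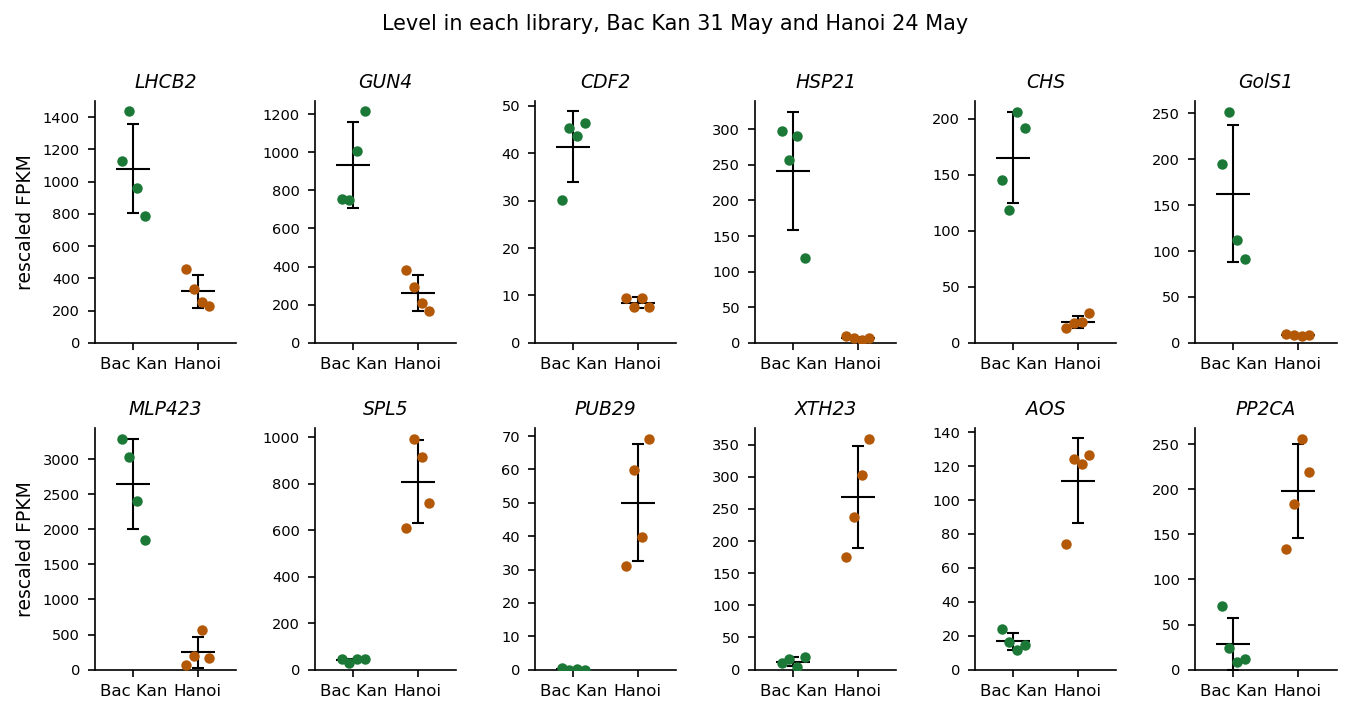
Level of 12 genes (rescaled FPKM, linear axes from 0) in each of the 4 libraries of Bac Kan 31 May (green, left) and Hanoi 24 May (orange, right), with the mean and SD as black marks. The 12 were picked from genes whose groups did not overlap. LHCB2, GUN4, CDF2, HSP21, CHS, GolS1 and MLP423 were higher in Bac Kan and SPL5, PUB29, XTH23, AOS and PP2CA lower.

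Heat-response genes differed in both directions. Small heat shock proteins, which hold unfolding proteins in solution, had 12 of 59 higher and 8 lower (median 0.28). The general chaperones HSP60, HSP70, HSP90, HSP101 and BAG had 15 of 46 lower and 5 higher (median -0.49). Their lower calls numbered 7 without Bac Kan library 3 and 9 without Hanoi library 3, and their higher calls 1 to 3 without Bac Kan library 1, 2 or 3 or Hanoi library 4. HSP21 (MANES_01G042200), a small chaperone of the chloroplast, was at 297, 257, 291 and 119 in Bac Kan and 9.24, 6.48, 3.51 and 6.79 in Hanoi. Bac Kan library 4 lay well below the other Bac Kan libraries and still far above any Hanoi value (4.98 ± 0.34, adjusted p = 3.66e-05). HSP22.0 (MANES_15G189500), of the endoplasmic reticulum, was at 24.6, 50.4, 14.2 and 13.3 in Bac Kan and listed at 0 in all 4 Hanoi libraries (adjusted p = 0.000158). HSP17.6II (MANES_16G083600), a class II protein of the cytosol, was at 480.2, 677, 480.0 and 473 in Bac Kan and 71.7, 118, 135 and 114 in Hanoi (2.28 ± 0.21, adjusted p = 0.000127). Against these stood HSC70-1 (MANES_07G114800), the main cytosolic HSP70, at 621, 381, 352 and 391 in Bac Kan and 1077, 1202, 1166 and 1092 in Hanoi (-1.41 ± 0.18, adjusted p = 0.000586). The heat shock factors that drive such genes were lower in 5 of 22 and higher in 1, and 3 were lower without Bac Kan library 2 or 3 or Hanoi library 4. HSFA2 (MANES_03G049500), which prolongs the heat response in Arabidopsis, was at 12.3, 14.6, 10.1 and 3.39 in Bac Kan and 22.7, 70.5, 84.2 and 102 in Hanoi (-2.63 ± 0.51, adjusted p = 0.0056). HSFA6B (MANES_01G204200), a factor under abscisic acid control, was at 32.3, 11.9, 17.4 and 21.2 in Bac Kan and 118, 53.0, 68.8 and 73.6 in Hanoi (-1.89 ± 0.32, adjusted p = 0.00296). Both factors had every Bac Kan library below every Hanoi library. The small heat shock proteins named here had the opposite order, but all were picked from the higher members. Of that list, 7 higher and 6 lower members kept their call without each single library.

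Abscisic acid genes, which close stomata and protect cells in drought, had 9 of 59 higher, 13 lower and a median of 0.01. ZEP (MANES_13G124100), zeaxanthin epoxidase, which feeds the pathway and tunes photoprotection, was at 1029, 972, 939.9 and 804 in Bac Kan and 335, 292, 331 and 291 in Hanoi. The receptor PYL8 (MANES_02G010800) was at 33.7, 30.0, 25.6 and 26.9 in Bac Kan and 9.59, 7.39, 9.39 and 11.1 in Hanoi. Both were higher in every library, by 1.58 ± 0.13 (adjusted p = 7.32e-05) and 1.54 ± 0.22 (adjusted p = 0.0013). PP2CA (MANES_07G119400), a phosphatase that holds the signal off and is itself induced by it in Arabidopsis, was at 70.5, 23.9, 8.87 and 11.4 in Bac Kan and 133.66, 184, 256 and 219 in Hanoi. The kinase SNRK2.6 (MANES_02G108000), which acts in guard cells, was at 0, 0.952, 3.03 and 0 in Bac Kan and 8.85, 10.2, 7.26 and 16.1 in Hanoi. These lay lower in every Bac Kan library, at differences of -3.17 ± 0.53 (adjusted p = 0.00269) and -2.74 ± 0.51 (adjusted p = 0.0048). Guard cell markers, at 23.4 to 32.1 in Bac Kan libraries and 45.1 to 68.9 in Hanoi libraries, ran the same way as SNRK2.6, and their part was not tested. The ethylene list had 5 of 30 higher and 4 lower. ACO4 (MANES_13G065800), the enzyme that releases ethylene, was at 1072, 685, 907 and 927 in Bac Kan and 2388, 2225, 1982 and 1799.7 in Hanoi (-1.23 ± 0.16). EBF1 (MANES_14G133100), an F-box protein that removes the ethylene factor EIN3, was at 53.1, 113, 56.9 and 56.5 in Bac Kan and 15.8, 9.29, 12.7 and 8.03 in Hanoi (2.48 ± 0.30, adjusted p = 0.000493). Neither gene overlapped, ACO4 lower and EBF1 higher in Bac Kan.

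Flavonoid genes were higher in Bac Kan in 9 of 26 tested and lower in none, with a median of 0.63, and 7 to 9 were higher when single libraries were left out. CHS (MANES_11G075100), chalcone synthase, opens the pathway to flavonols and anthocyanins. It was at 145, 118, 206 and 192 in Bac Kan and 12.9, 17.5, 18.2 and 26.4 in Hanoi, with no overlap (3.08 ± 0.25, adjusted p = 7.32e-05). F3H (MANES_02G104700), the hydroxylase in the middle of the pathway, was at 29.7, 36.9, 58.2 and 55.9 in Bac Kan and 15.4, 5.96, 6.46 and 8.33 in Hanoi (2.24 ± 0.33, adjusted p = 0.00147). DFR (MANES_18G022300), the reductase that leads to anthocyanins, was at 14.4, 17.3, 31.6 and 30.9 in Bac Kan and 0.242, 1.06, 1.97 and 0 in Hanoi (3.81 ± 0.44, adjusted p = 0.000387). In all 3, Bac Kan libraries 3 and 4 were above Bac Kan libraries 1 and 2. The phenylpropanoid list upstream had 4 of 27 higher and 3 lower, with a median of -0.01 (25.9% called, against 18.7% of all genes tested). Of these calls, 3 higher and 3 lower were kept without each single library, and only higher members are named here. Among the higher members were genes on the way to lignin and related phenolics. CCR1 (MANES_04G103200), cinnamoyl-CoA reductase, was at 25.1, 34.9, 51.6 and 48.2 in Bac Kan and 0, 0.765, 8.88 and 2.24 in Hanoi (3.85 ± 0.61, adjusted p = 0.00203). F5H (MANES_02G100800), ferulate 5-hydroxylase, was at 8.54, 11.6, 47.7 and 54.9 in Bac Kan and 0.163, 0, 0.222 and 0 in Hanoi, with the same pair of Bac Kan libraries on top (4.45 ± 0.58, adjusted p = 0.000766). The summed markers of woody tissue were 0.627 to 2.10 in Bac Kan libraries and 6.95 to 13.0 in Hanoi libraries, near 0 in both, and the 1 tested was not called. Secondary wall genes had 2 of 8 higher and none lower (25% called, against 18.7% of all genes tested), with a median of -0.52. The part of woody tissue in these differences was not tested. Glutathione transferases, which move and detoxify such compounds, had 5 of 35 higher and none lower (3 higher without Bac Kan library 2 or 4). Their called share, 14.3%, was under the 18.7% over all genes tested.

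Starch genes were lower and sugar carriers higher, among those called. Of 43 tested starch genes 11 were lower and none higher (median -0.43), with 5 lower without Bac Kan library 3 and 7 without Bac Kan library 1 or 4. BAM1 (MANES_15G047700), a beta-amylase that breaks starch down in the light and under stress in Arabidopsis, was at 28.9, 14.7, 6.49 and 9.98 in Bac Kan and 35.2, 79.9, 81.6 and 79.6 in Hanoi. Hanoi library 1, at the bottom of its group, lay just above Bac Kan library 1, at the top of its own (-2.25 ± 0.42, adjusted p = 0.00506). Sugar transport had 5 of 21 higher and none lower, but its median of 0.09 was near the 0.07 over all genes tested. Its higher calls numbered 3 without Bac Kan library 1, 2 or 3. SWEET17 (MANES_01G120400), a fructose carrier of the vacuole, was at 49.7, 72.8, 57.9 and 49.3 in Bac Kan and 4.17, 3.66, 5.66 and 4.09 in Hanoi, all higher (3.43 ± 0.24, adjusted p = 3.94e-05). The raffinose and trehalose list had 4 of 23 higher and 6 lower (3 lower without Bac Kan library 3 or Hanoi library 4), and its galactinol synthases, the first step to raffinose, went opposite ways. GolS1 (MANES_05G012000) was at 195, 251, 112 and 91.8 in Bac Kan and 9.28, 8.92, 7.98 and 8.59 in Hanoi. GolS2 (MANES_08G109300) was at 59.3, 44.4, 15.8 and 17.9 in Bac Kan and 82.1, 117, 107 and 120.4 in Hanoi. The groups did not overlap in either gene, at 3.96 ± 0.30 (adjusted p = 5.78e-05) and -1.80 ± 0.39 (adjusted p = 0.00963), and within Bac Kan libraries 1 and 2 were above 3 and 4 in both. TPS9 (MANES_05G087900), of the trehalose-phosphate synthase family, was at 0.953, 2.53, 2.17 and 2.80 in Bac Kan and 9.35, 23.1, 28.7 and 26.4 in Hanoi, lower in every library (-2.81 ± 0.41).

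Nutrient genes differed in both directions. The nitrogen list had 7 of 32 higher and 4 lower (4 higher without Bac Kan library 3). NRT2.7 (MANES_17G114900), a nitrate transporter of the vacuole in Arabidopsis seeds, was at 79.3, 64.8, 83.3 and 64.0 in Bac Kan and 24.5, 23.3, 8.04 and 12.8 in Hanoi (2.14 ± 0.32, adjusted p = 0.00157). NIR1 (MANES_10G071700), nitrite reductase, which makes ammonium in the chloroplast, was at 59.1, 37.5, 68.0 and 65.5 in Bac Kan and 208, 101.48, 126 and 176 in Hanoi (-1.38 ± 0.26, adjusted p = 0.00539). The transporter was thus higher and the reductase lower in every Bac Kan library. The phosphate list had 4 of 26 higher and 2 lower (23.1% called, against 18.7% of all genes tested). SPX2 (MANES_18G052600), a sensor of phosphate status, was at 55.2, 67.02, 56.9 and 52.6 in Bac Kan and 17.1, 3.70, 24.5 and 23.2 in Hanoi, with Hanoi library 2 far below the rest of its group (1.96 ± 0.47, adjusted p = 0.0162). Aquaporins had 6 of 28 higher and 2 lower.

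Among hormones of growth, auxin genes had a called share (17.3%) near that over all genes tested (18.7%), with 12 of 104 higher and 6 lower. Without Bac Kan library 2 these were 6 and 3, and 3 were lower without Bac Kan library 3. IAA29 (MANES_14G115100), an auxin repressor induced by shade and warmth in Arabidopsis, was at 30.3, 32.3, 42.7 and 35.7 in Bac Kan and 3.88, 3.09, 3.35 and 0.432 in Hanoi, with every Bac Kan library far above (3.43 ± 0.40, adjusted p = 0.000378). Gibberellin genes had 10 of 34 higher and 3 lower. The receptor GID1B (MANES_05G070500) was at 31.0, 25.7, 26.3 and 24.1 in Bac Kan and 1.60, 5.93, 13.0 and 2.84 in Hanoi, where library 3 came nearest to the Bac Kan values (2.31 ± 0.46, adjusted p = 0.00672). GA2OX1 (MANES_03G091000), which inactivates gibberellin, was listed at 0 in all 4 Bac Kan libraries and was at 4.32, 9.66, 20.3 and 12.7 in Hanoi (adjusted p = 0.000845). Cytokinin genes had 4 of 28 lower and none higher, a called share (14.3%) under that over all genes tested. Ribosomal protein genes, a gauge of the capacity for making protein, had 48 of 310 higher and 21 lower (22.3% called) with a median of 0.29. Their higher calls numbered 31, 25, 27 and 31 without Bac Kan libraries 1 to 4.

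Genes of the leaf surface were divided as well, with 8 of 53 cuticle and wax genes higher and 10 lower. The lower ones numbered 5 or 6 without Bac Kan library 1, 2 or 3 or Hanoi library 4. CER2 (MANES_02G144500), which lengthens wax precursors together with CER6, was at 50.1, 57.5, 54.4 and 45.5 in Bac Kan and 5.35, 15.3, 1.07 and 11.4 in Hanoi, where library 3 was almost without it (2.87 ± 0.54, adjusted p = 0.00492). CER6, the epidermis marker given above, was higher too. It is itself a wax gene and so no separate gauge of the epidermis, whose part was not tested.

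Large differences also fell on genes outside these pathways. RL6 (MANES_05G158300), a small MYB-like protein of the RADIALIS family, was at 265, 137, 214 and 284 in Bac Kan and 0, 0, 5.14 and 13.9 in Hanoi. It was at 0 in Hanoi libraries 1 and 2, and every Bac Kan library lay far above the other Hanoi libraries too (6.14 ± 0.78, adjusted p = 0.000642). BPS1 (MANES_07G011500), named for a gene that limits a root-made signal in Arabidopsis, was at 10.7, 18.1, 7.39 and 9.05 in Bac Kan and 238, 291, 262 and 329 in Hanoi (-4.57 ± 0.25, adjusted p = 8.33e-06). Copies of MLP423, a major latex-like protein of the fold that binds small hydrophobic molecules, went opposite ways. The copy MANES_05G089800 was at 3287, 3025, 2399 and 1853 in Bac Kan and 60.2, 193, 563 and 167 in Hanoi. The copy MANES_05G090000, close by in the same ID series, was at 5.87, 20.1, 7.99 and 8.38 in Bac Kan and 37.8, 24.3, 97.2 and 99.4 in Hanoi. Neither copy had overlapping groups, and the differences were 3.82 ± 0.53 (adjusted p = 0.00099) and -2.41 ± 0.49 (adjusted p = 0.00765). The Kunitz inhibitor and latex-like list they belong to had 5 of 14 tested higher and 1 lower.

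The late May difference was then set against the other pairs of nearby dates, 26 July in Bac Kan and 13 July in Hanoi, 15 August and 7 August, and 5 October and 10 October, in a fit over all 44 libraries. No library belongs to more than 1 pair. The late May difference departed from the mean of the other 3 in 6685 of 20604 genes (32.4%), 3819 upward (18.5%) and 2866 downward (13.9%). Genes named here were mostly chosen for a large late May difference, which is also a term of the departure, so their departures are given as values and their number supports nothing. The same fit called 2126 genes in the July pair (10.3%, with 5.96% higher and 4.36% lower), 3400 in the August pair (16.5%, with 7.37% higher and 9.13% lower) and 5583 in the October pair (27.1%, with 12% higher and 15.1% lower). Of the 3814, 734 were also called in July and 281 of those in the same direction, 1025 in August with 613 in the same direction, and 1550 in October with 708 in the same direction. Called in the same direction at all 4 pairs were 58 genes, 37 higher and 21 lower. SWEET17 and NRT2.7 were among those higher at every pair and MYB44 and TPS9 among those lower. For SWEET17 the differences were 3.43, 1.63, 0.83 and 0.67 in late May, July, August and October. For MYB44 they were -4.18, -1.83, -2.33 and -2.43 in the same order.

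Genes of the antenna, the photosystems and day-length signalling departed upward more often than downward. In the same fit 18 of 20 antenna genes were higher and 1 lower in late May, against 1 and 6 in July, 5 and 0 in August and 2 and 7 in October, and 15 departed upward and 1 downward from the other pairs. LHCB2 differed by 1.78, -0.81, 0.25 and -1.90 in the 4 pairs, a departure of 2.597 ± 0.28 (adjusted p = 4.93e-09). Photosystem subunits had 16 of 30 upward departures and none downward, but the Calvin cycle had 8 upward and 6 downward of 31 and photorespiration 4 and 2 of 14, nearer to the shares over all genes. Photoperiod genes had 19 higher and 1 lower of 38 in late May, 1 and 3 in July, 7 and 4 in August and 0 and 15 in October, and 16 departed upward and 1 downward. CDF2 differed by 2.15 in late May and -1.56 in October, a departure of 3.04 ± 0.27 (adjusted p = 5.00e-11), and the B-box factor MANES_15G081200 departed by 4.35 ± 0.27 (adjusted p = 8.85e-15). SPL5 ran the other way, at -4.28, -1.43, -1.37 and 1.56 (departure -3.86 ± 0.41, adjusted p = 2.22e-09). Ribosomal protein genes had 77 higher and 30 lower in late May, 11 and 14 in July, 5 and 36 in August and 19 and 117 in October, and 99 of 310 departed upward and 23 downward.

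Heat-response and starch genes departed downward more often than upward. Chaperones had 6 higher and 17 lower of 45 in late May, 19 and 0 in July, 7 and 5 in August and 26 and 3 in October, and 25 departed downward and 1 upward. Small heat shock proteins had 10 higher and 8 lower of 59 in late May, 25 and 1 in July, 8 and 8 in August and 40 and 3 in October, where their median was 2.59, and 22 departed downward and 7 upward. HSFA2 differed by -2.63, 4.72, 0.01 and 5.27 in the 4 pairs, a departure of -5.96 ± 0.69 (adjusted p = 1.42e-08). Starch genes had 1 higher and 14 lower of 43 in late May, 2 and 4 in July, 10 and 0 in August and 24 and 2 in October, and 22 departed downward and none upward. HSP17.6II was not called for a departure (0.77 ± 0.53, adjusted p = 0.281), and its July, August and October differences were 1.86, -3.95 and 6.61.

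Other groups were called in the same direction at more than 1 pair. WRKY factors had 8 higher and 20 lower of 66 in late May and 3 and 5 in July. They had 1 and 25 in August and 3 and 28 in October. Their medians were 0.01, 0.03, -0.56 and -0.675 in that order, and 17 departed upward and 9 downward. Early-response genes had none higher and 23 lower of 45 in late May, 3 and 3 in July, 0 and 8 in August and 0 and 21 in October, with medians of -1.30, 0.24, -0.23 and -1.05, and 19 departed downward and 3 upward. Called flavonoid genes were mostly higher at each pair, with 10 and 1 of 30 in late May, 2 and 0 in July, 8 and 2 in August and 17 and 2 in October, and 4 departed upward and 3 downward. F3H was 2.24 in late May and 4.68 in October, and its departure from the mean of the other pairs was not called (0.00 ± 0.44, adjusted p = 0.999), whereas CHS departed by 2.96 ± 0.30 (adjusted p = 1.35e-09). Jasmonate synthesis had 0 higher and 6 lower of 17 in late May, 2 and 6 in August and 2 and 3 in July and in October, and 9 departed downward and 3 upward.

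**Figure D4:**
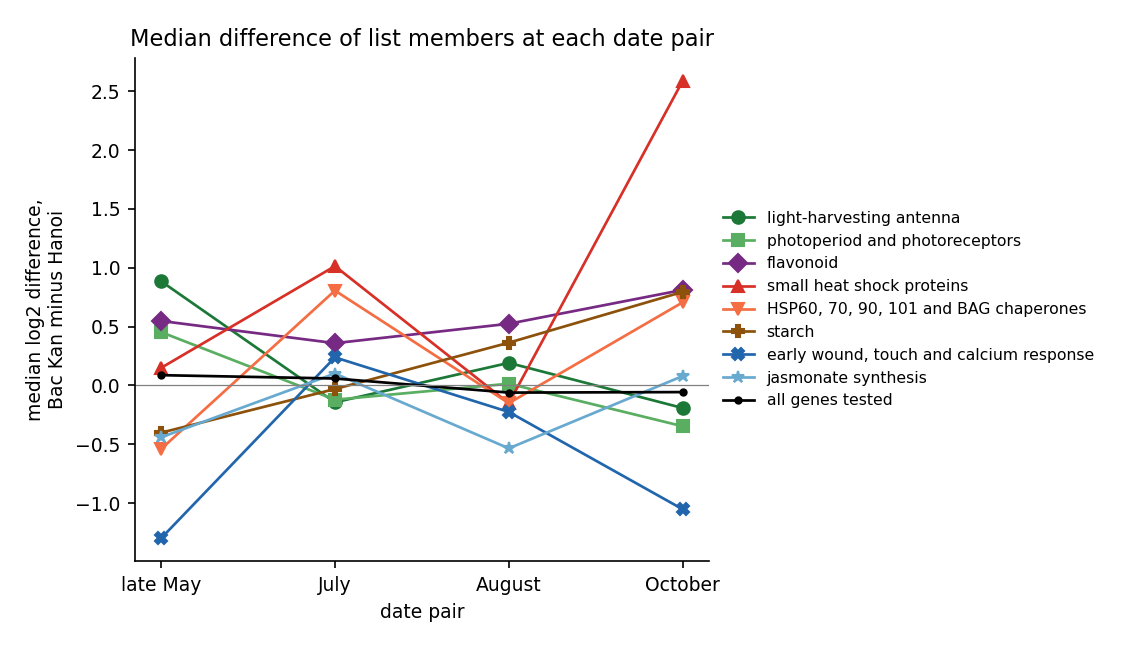
Median difference (log2, Bac Kan minus Hanoi, fit over all 44 libraries) of the tested members of 8 gene lists and of all genes tested (black), at the late May, July, August and October pairs. Antenna and photoperiod genes have their highest median in late May, starch genes and chaperones their lowest, and the early-response genes are low in late May and October (-1.30 and -1.05).

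Libraries of a group were not alike in the fast-response genes. The mean log2(level + 1) over the early-response genes was 3.49, 3.22, 2.63 and 2.75 in Bac Kan libraries 1 to 4 and 4.14, 4.26, 4.31 and 4.86 in Hanoi libraries 1 to 4. For the AP2 and ERF family it was 3.06, 3.12, 2.78 and 2.99 in Bac Kan and 3.45, 3.47, 3.65 and 3.77 in Hanoi. For WRKY factors the groups overlapped, at 3.42, 3.26, 3.03 and 3.22 in Bac Kan and 3.25, 3.67, 3.78 and 3.84 in Hanoi, with Hanoi library 1 among the Bac Kan values. Jasmonate signalling genes were at 3.22, 3.17, 3.33 and 3.44 in Bac Kan and 4.01, 4.31, 4.60 and 4.92 in Hanoi. Expansins and XTH were at 2.86, 2.53, 2.46 and 2.61 in Bac Kan and varied less in Hanoi, at 3.82, 3.84, 3.92 and 3.89. Over all genes tested the mean was 3.70 to 3.75 in Bac Kan libraries and 3.58 to 3.74 in Hanoi libraries.

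**Figure D5:**
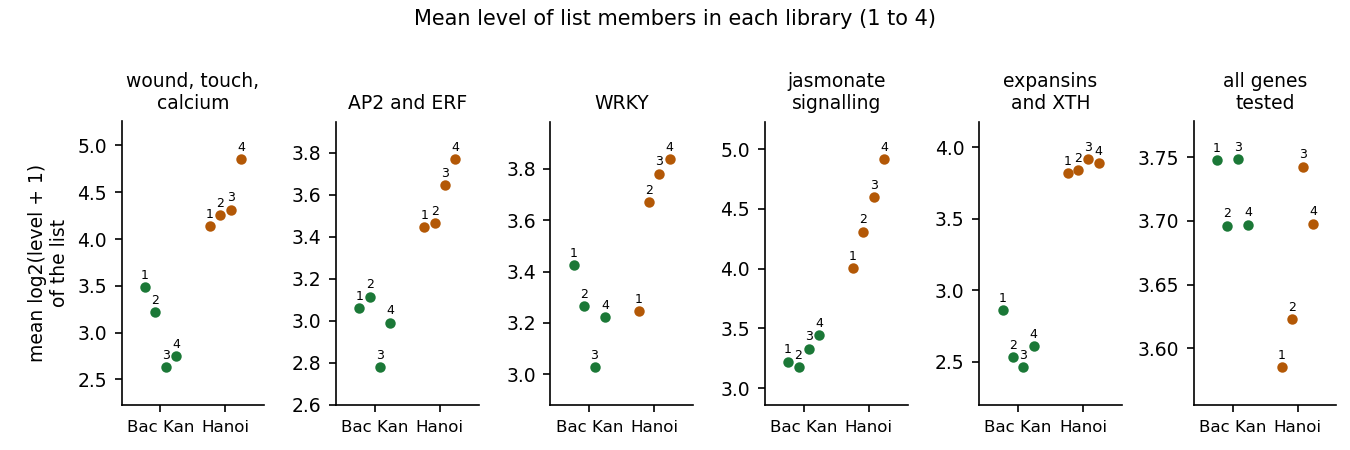
Mean log2(level + 1) of the tested members of 5 gene lists and of all genes tested in each library (numbered 1 to 4), with Bac Kan 31 May in green on the left and Hanoi 24 May in orange on the right of each panel; the axes do not start at 0. The groups are apart for the early-response, AP2 and ERF, jasmonate signalling and expansin lists and overlap for WRKY factors and for all genes.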

How the data were processed

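Leaf RNA was sequenced in 44 libraries of 11 groups, of which the 4 of Bac Kan 31 May and the 4 of Hanoi 24 May are described here. The authors deposited FPKM per transcript (41491 transcripts of 34120 gene IDs); reads were aligned with TopHat2, per the submitters' processing notes, and the aligner's version, quantifier, genome build and annotation are not given in the sources used here. Libraries were grouped by the site and date in the sample titles; 1 further column of sample values matched no sample and was not used. FPKM of a gene's transcripts were summed, each library rescaled to a total of 1000000, and log2(level + 1) fitted with limma 3.58.1 in R 4.3.3 (empirical Bayes with a trend), for genes with a mean of at least 1. The model was also run on simulated data with the same spread in both groups and few changed genes, all upward. That setting differs from these data, so the run does not check the calls given here. Late May was compared within its 8 libraries, and against the mean of the July, August and October pairs in a fit over 44. Alternatives covered pseudocount, filter, scaling, transcript choice, variance model and left-out libraries. Named genes were called, had groups that did not overlap, averaged at least 5 where they were higher, and were taken by size of difference over all genes or within a list, beside a set of flowering and clock genes and MCM4, which averaged under 5 and was chosen after its values were seen; the text gives part of them. Members and gene lists were chosen with earlier results of these data known. No sequences are printed.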

Additional observations from a re-analysis of the deposited data

Results flagged for a closer look

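In 11 of the 172 sets of 4 libraries examined, the highest or lowest library stood apart from the other 3 of its group by a larger share of its range than Dixon's 95% critical value allows, and chance gives about 1 in 20. Bac Kan library 2 was the highest of its group for LHCA3 (6307.5), LHCB1.3 (31.9), HSP17.6II (677) and EBF1 (113) and the lowest for SPL5 (30.3). Bac Kan library 1 was the lowest for CDF2 (30.2) and the highest for HSC70-1 (621). Hanoi library 1 was the lowest of its group for AOS (74.0) and BAM1 (35.2) and in its mean correlation with the other Hanoi libraries (0.846), and Hanoi library 2 was the highest for XTH32 (4.34).

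The late May difference departed from the mean of the July, August and October pairs in 69 of the 79 described genes that could be tested, by limma with adjusted p under 0.05, against 32.4% of all genes. Most of these genes were chosen for a large late May difference, which is also a term of the departure, so that count was largely set by the choice and supports nothing. Values are log2 differences, late May minus the mean of the other pairs, and those of CO, HSP22.0, RALFL27 and GA2OX1, listed at 0 in 1 late May group, depend on the 1 added to each level. Departures upward were 5.77 for MLP423, 5.04 for CCR1, 4.37 for F5H, 4.35 for the B-box factor MANES_15G081200, 4.32 for HSP21 and 4.14 for WRKY47. Also upward were 3.99 for EBF1, 3.92 for RL6, 3.84 for HSP22.0, 3.52 for CER2, 3.04 for CDF2 and 2.96 for CHS. Upward as well were 2.71 for IAA29, 2.597 for LHCB2, 2.43 for XTH32, 2.39 for SWEET17, 2.31 for CO and 2.13 for PYL8. Smaller upward departures were 2.07 for CHLM, 2.02 for GID1B, 2.01 for GUN4, 1.93 for LHY, 1.91 for FUL and 1.86 for GolS1. At the low end stood 1.77 for PRR5, 1.71 for LHCA3, 1.71 for DFR, 1.68 for SPX2, 1.63 for PSAK and 1.58 for COL4. The last were 1.53 for ZTL, 1.42 for PAO, 1.26 for the LHY copy MANES_01G239000, 1.07 for the CA1 copy MANES_15G167500, 0.95 for the SOC1 copy MANES_05G041900 and 0.61 for GAPB. ZEP departed upward by 0.61. Departures downward were -5.96 for HSFA2, -4.95 for PP2CA, -4.80 for HSFA6B, -4.58 for EXPA15, -4.53 for PUB29 and -4.21 for BPS1. Also downward were -4.19 for ERF9, -4.01 for GolS2, -3.95 for CYP94B1, -3.86 for SPL5, -3.52 for GA2OX1 and -3.32 for SNRK2.6. Downward as well were -3.31 for MAPKKK19, -3.31 for RALFL27, -3.24 for BAM1, -3.02 for ZAT10, -2.92 for SPL3 and -2.60 for XTH23. Smaller downward departures were -2.60 for HSC70-1, -2.30 for the MLP423 copy MANES_05G090000, -2.30 for AOS, -2.19 for MCM4, -2.17 for the FUL copy MANES_14G088500 and -2.01 for NIR1. At the near end stood -1.98 for MYB44, -1.92 for PRR7, -1.91 for MPK3, -1.75 for HEMA1, -1.65 for LHCB1.3 and -1.62 for RPI2. The last of these were -1.34 for ACO4 and -1.08 for TPS9.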

How the results depend on the processing

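The count of genes called in late May ranged over 2439 to 3921 when single libraries were left out (1245 to 2164 higher and 1194 to 1757 lower), and was 6570 in a fit over all 44 libraries (3754 higher and 2816 lower). The other alternatives kept it within 1.5 times of 3814, and those for the comparison with the other date pairs kept theirs within 1.5 times of 6685. Of 126 recomputed counts 120 stayed within that bound. Of 1578 recomputed gene values none reversed, 4 lost their call and 1 gained one, and 68 of the 70 called genes described kept theirs under every alternative that tested them (the exceptions were LHY and FUL). Of the calls, 55.6% were higher in Bac Kan, and 47.8% when libraries were scaled without their 10 most abundant genes. No paired analysis was possible because the columns carry no replicate number. The deposited values are FPKM, so read depth is known only relative to other libraries, and no interval from counts can be given for genes at low levels.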
